A study of Mus musculus with 70 samples.

Results

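Tubulins, actins and the motors that run on microtubules were examined as 1 group of genes in 2 mouse lines, HAB and LAB, bred for high and for low anxiety. The members were all array spots whose gene name began with tubulin, actin, kinesin, dynein, dynactin, microtubule-associated, stathmin or spastic paraplegia 4. This gave 142 of the 22824 gene probes, which carried 83 different names. Each name was represented by its probe with the highest mean intensity over the 70 arrays, and other probes of the same name are given beside it. Of the 83 names, 46 had 1 probe, 22 had 2, 11 had 3 and 4 had between 4 and 6. Because the rule reads only the start of a name, it also took in the 6 subunits of the Arp2/3 complex, 3 actinins, 2 tubulin folding cofactors and the kinesin pseudogene Kif22-ps.

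HAB and LAB are lines of mice selected over generations for their behavior on the elevated plus-maze. RNA came from male mice, 10 weeks of age and from breeding generation 16, and 6 mice of a line were pooled for each brain region after micropunching. The 7 regions were the hypothalamic paraventricular nucleus (PVN), the basolateral (BLA), central (CeA) and medial (MeA) amygdala, the nucleus accumbens (NAc), the cingulate cortex (Cg) and the supraoptic nucleus (SON). The RNA was amplified in 2 rounds, and HAB and LAB were hybridized together to 10 arrays per region, 5 with HAB labeled in Cy3 and 5 with HAB in Cy5. The 10 arrays of a region thus shared the same pair of RNA pools. A p-value within a region, or between regions, measured only the spread between technical replicates, and one over the 7 regions came from the same 6 mice per line, so neither measured the spread between mice. All values below are log2 of the HAB over the LAB signal, so that a positive value means a higher signal in HAB. In pooled tissue, fewer cells of a type and less RNA per cell cannot be told apart.

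Microtubules are hollow polymers of alpha- and beta-tubulin, and actin forms the thinner filaments that shape dendritic spines and growth cones. Kinesins carry cargo toward the plus ends of microtubules, and cytoplasmic dynein with its partner complex dynactin carries it toward the minus ends, so that axons and dendrites depend on both. Stathmins bind free tubulin and promote microtubule shrinkage, microtubule-associated proteins such as tau and Map2 stabilize the polymer, and spastin, the product of Spast, is an ATPase that severs it. In humans, SPAST and KIF5A are genes of hereditary spastic paraplegia.

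The promoters of 3 members are shown because the results turn on these genes. Spast held the only probe that differed between the lines over all regions, and Kifap3 and Kif5c had several probes that changed alike between regions. They were chosen after the values were seen. Sequences are from RefSeq on GRCm38.p6 and cover 300 bases around the start of the gene, most of them upstream, and capitals mark motif matches. The motifs were searched on both strands. The GC box has the letters GGGCGG. The cyclic AMP response element has the letters TGACGTCA. The remaining motif is the CCAAT box.
Spast, chr17:74338737-74339036, plus strand: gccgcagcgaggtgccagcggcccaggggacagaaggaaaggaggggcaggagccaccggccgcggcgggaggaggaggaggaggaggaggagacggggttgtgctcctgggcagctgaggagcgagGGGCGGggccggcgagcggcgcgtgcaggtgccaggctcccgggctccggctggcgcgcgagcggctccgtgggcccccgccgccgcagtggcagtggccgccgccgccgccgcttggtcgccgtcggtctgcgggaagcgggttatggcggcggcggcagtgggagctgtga
Kifap3, chr1:163779333-163779632, plus strand: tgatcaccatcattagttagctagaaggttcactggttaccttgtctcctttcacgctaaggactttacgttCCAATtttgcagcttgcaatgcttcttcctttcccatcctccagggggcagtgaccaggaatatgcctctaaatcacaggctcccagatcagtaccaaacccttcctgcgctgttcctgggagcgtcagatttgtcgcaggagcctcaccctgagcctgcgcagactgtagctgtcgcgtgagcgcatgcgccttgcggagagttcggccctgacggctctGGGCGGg
Kif5c, chr2:49619036-49619335, plus strand: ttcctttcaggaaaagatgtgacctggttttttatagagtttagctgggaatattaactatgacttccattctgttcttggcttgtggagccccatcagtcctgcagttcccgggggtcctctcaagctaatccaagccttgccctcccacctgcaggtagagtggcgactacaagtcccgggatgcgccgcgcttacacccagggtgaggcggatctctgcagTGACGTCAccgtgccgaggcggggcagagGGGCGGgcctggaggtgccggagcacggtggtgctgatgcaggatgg
A GC box was found in all 3, at bases 128 to 133 in Spast, 294 to 299 in Kifap3 and 254 to 259 in Kif5c, and 35.7% of all 32851 promoters of this length hold 1. Kifap3 also held CCAAT at bases 73 to 77 (37.4% of all promoters hold it), and Kif5c held TGACGTCA at bases 225 to 232 (1.79% of all promoters). No match overlapped another, and all were on the strand printed. The GC content was 77.3% for Spast, 55% for Kifap3 and 58% for Kif5c. A match describes the letters only, and the binding of a factor was not measured.

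The median spot intensity of an array lay between 206 and 1938. An array of the CeA with HAB in Cy3 (replicate 4) stood apart with 1938, against 733 for the next highest, and results from the CeA are given with it. Without it, 0 names and 1 member probe passed the test over regions, as with it. A probe was counted as measured in a line where its signal exceeded the empty spots of the same array, and 85 of the 142 member probes (59.9%) did so on at least 35 of the 70 arrays in HAB or in LAB, against 54.8% of all probes. Among the 83 names 54 did. Several tubulins and actins are near-identical in sequence, and their probes may have shared signal. Of 9 neuronal marker genes fixed for comparison 7 could be matched to a probe and 5 were above the empty spots. The median of the 7 lay between -0.24 (SON) and 0.19 (NAc) over the regions, and it was -0.16 in the CeA. Stmn2, a member here, is 1 of them.

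The 83 names had a median close to 0. Their median over the 7 regions was -0.005, against -0.001 for all probes, with 37 names higher and 46 lower in HAB. None of the 83 names passed the test over regions with limma (Benjamini-Hochberg over all 22824 probes, adjusted p under 0.05), 8 of 83 (9.64%) had an unadjusted p under 0.05, and of all probes 6.33% had one. Counting every probe, 1 of 142 passed, a probe of Spast, against 69 of 22824 (0.302%) among all probes. By region, the median of the 83 names was -0.061 in the PVN, -0.018 in the BLA, -0.077 in the CeA, -0.018 in the NAc, -0.035 in the MeA, 0.021 in the Cg and 0.066 in the SON. Medians of all probes lay between -0.004 and 0.008. The BLA, the CeA and the Cg were scanned on 2 days. Both days of the BLA held both orientations, with medians of the 83 names of -0.007 (7 arrays) and -0.009 (3 arrays). In the CeA and the Cg 1 of the days held only arrays with HAB in Cy3. On the day that held both orientations the median of the 83 names was -0.014 in the CeA (8 arrays) and 0.082 in the Cg (6 arrays, of which 1 had HAB in Cy3).

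**Figure D1:**
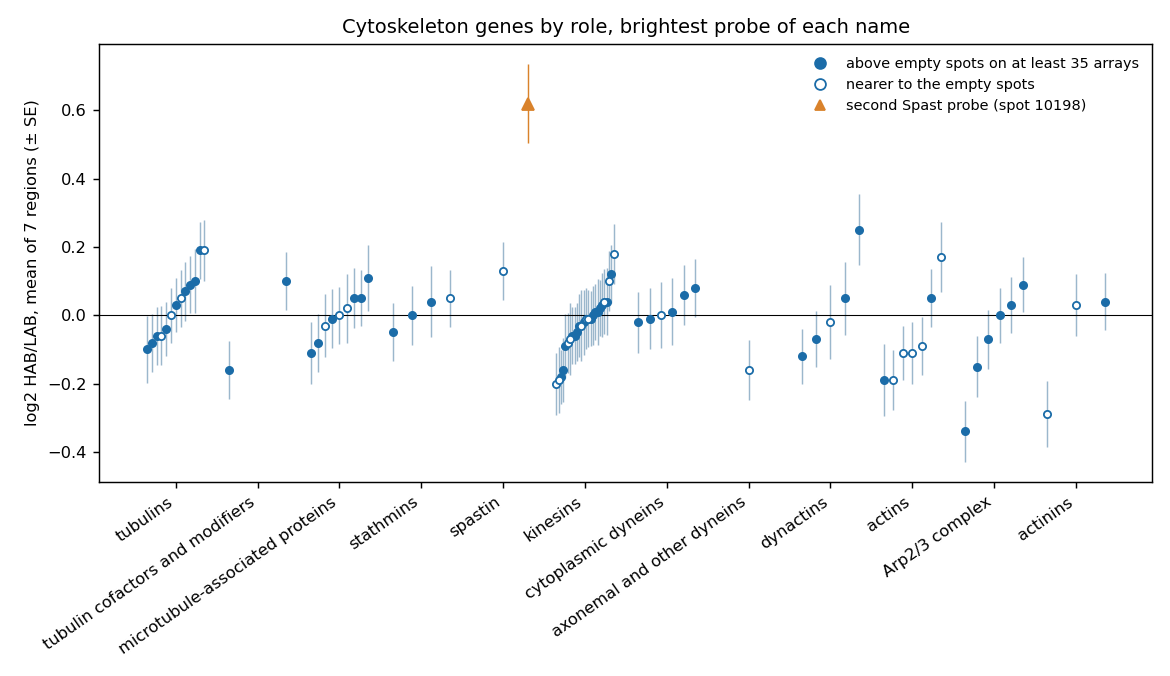
Mean log2 HAB/LAB over the 7 regions (vertical axis, error bars are the standard error of limma) for the brightest probe of each of the 83 names, grouped by role. Filled points were above the empty spots on at least 35 arrays, open points were nearer to them, and the triangle is the probe of Spast at 0.62, which lies above all of the 83 brightest probes.

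Among the 12 roles, median values over regions ran between -0.16 (the single axonemal dynein, Dnal4, which was not well above the empty spots) and 0.13 (spastin). The tubulins had a median of 0.03, the kinesins -0.01, the actins -0.11 and the Arp2/3 complex -0.04. The highest of the 83 names over regions was Dctn6 at 0.25 (adjusted p = 0.699 in limma) and the lowest was Arpc1b at -0.34 (adjusted p = 0.170). Both stayed short of the threshold.

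Spast had 2 probes with unlike values. The signal of spot 10198 was higher in HAB over the 7 regions by 0.62 ± 0.12 (SE), with an adjusted p of 0.00930 in limma, and all 7 regions had a positive value. The region values were 1.26 in the PVN, 0.31 in the BLA, 0.04 in the CeA, 0.87 in the NAc, 1.07 in the MeA, 0.61 in the Cg and 0.16 in the SON. They were highest in the PVN and MeA and close to 0 in the CeA and SON, and the difference between regions passed the F-test of limma at an adjusted p of 0.0138. In the PVN the arrays with HAB in Cy3 gave 1.94, 2.31, 0.82, 0.45 and 1.11, and those with HAB in Cy5 gave 1.07, 1.44, 2.22, 0.90 and 0.33. All 10 were above 0, and the PVN value had an adjusted p of 0.0225 in limma. In the MeA the 10 arrays lay between 0.25 and 2.20 with a median of 1.23, again all above 0, and the adjusted p was 0.0610. The NAc had 9 of 10 arrays above 0 and an adjusted p of 0.0886, and the Cg 9 of 10 and 0.317.

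The probe was dim. It exceeded the empty spots in 47 HAB channels and in 22 LAB channels of the 70 arrays. HAB exceeded them on 10 of 10 arrays of the PVN and of the MeA, and LAB on 5 of 10 of each. In the NAc the counts were 7 for HAB and 1 for LAB, in the Cg 8 and 5, in the SON 7 and 5, in the BLA 5 and 0, and in the CeA 0 and 1. LAB was above them on no array of the BLA and HAB on no array of the CeA, so the values of these regions, 0.31 and 0.04, do not give the size of a difference. Without the BLA the value was 0.67 (adjusted p = 0.0128) and without the CeA 0.71 (adjusted p = 0.00141). It lost the call without the PVN (0.51, adjusted p = 0.0539), without the MeA (0.54, adjusted p = 0.0884) and with no background correction (0.67, adjusted p = 0.0685).

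The second probe, spot 7568, had the higher mean intensity (550, against 459 for spot 10198) and did not pass the test. The difference between the 2 probes was not tested. Its value over regions was 0.13 ± 0.09 (SE, adjusted p = 0.878), with -0.04 in the PVN, 0.14 in the BLA, -0.21 in the CeA, 0.34 in the NAc, 0.09 in the MeA, 0.19 in the Cg and 0.42 in the SON. It exceeded the empty spots in 26 HAB and 22 LAB channels, so it too lay near the background. In the PVN its arrays ran between -1.94 and 0.99 with a median of -0.12, and 4 of 10 were above 0. Since the sequences of the 2 probes were not used here, whether they read the same transcripts of Spast was not tested. The promoter of Spast is the first of the sequences above.

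**Figure D2:**
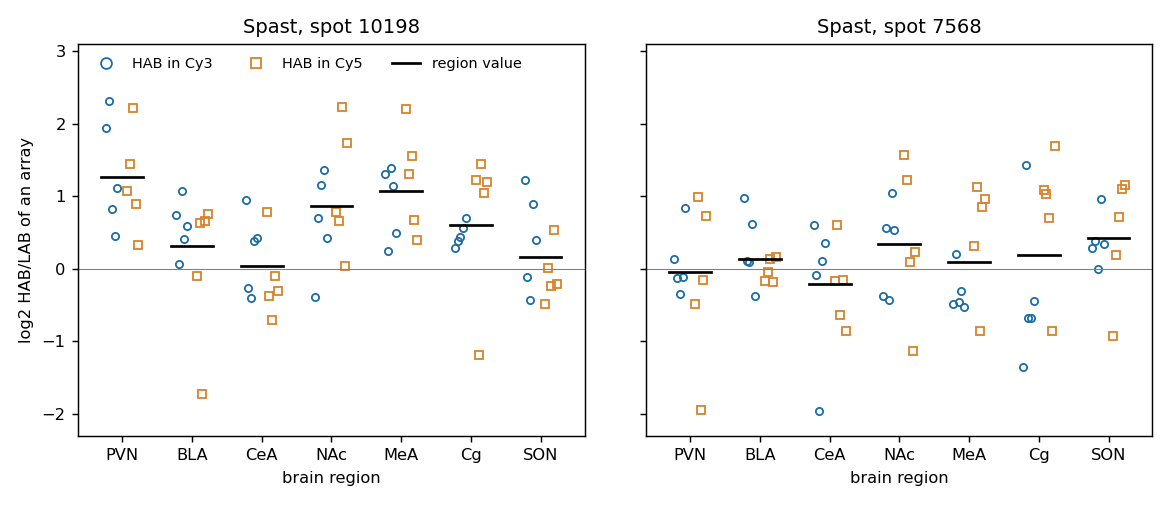
Log2 HAB/LAB of each array (vertical axis) for the 2 probes of Spast in the 7 regions, with circles for HAB in Cy3, squares for HAB in Cy5 and bars for the region value. All 10 arrays of the PVN and of the MeA lie above 0 for spot 10198, while the arrays of spot 7568 spread to both sides of 0 in these regions.

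Within single regions, a member was counted when its mean difference was 1.3-fold or more and none of the 10 arrays went the other way. The 142 probes in 7 regions made 994 pairs of probe and region, of which 16 (1.61%) were counted. The share was 0.957% for all probes and 1.60% for all probes above the empty spots. By limma within a region, 2 of the 994 pairs (0.201%) had an adjusted p under 0.05, against 0.361% of all pairs. They were Spast in the PVN and Stmn1 in the NAc, both higher in HAB. Without any 1 of the 5 replicates of each dye orientation 0 pairs remained past the threshold, with no background correction 0, and with scaling to the array median only 18. The shares of all pairs under these settings are not given here. Of the 994 pairs 131 (13.2%) had an unadjusted p under 0.05 in limma, against 9.61% of all pairs. The difference between these shares was not tested.

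In the PVN 1 member probe was counted as higher in HAB and 2 as lower, where 0.254% of all probes were higher and 0.486% lower. In the BLA no member was counted (0.0570% of all probes higher, 0.166% lower), and 0 of the 142 probes passed limma there. In the CeA 0 were higher and 2 lower (0.464% and 0.552% of all probes), in the NAc 2 and 2 (0.644% and 1.35%), and in the MeA 3 and 1 (0.280% and 0.307%). In the Cg 1 was higher and 0 lower (0.762% and 0.819%), and in the SON 2 and 0 (0.320% and 0.237%). With 142 probes per region these counts are small.

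Stathmin 1, a tubulin-binding protein strongly expressed in the amygdala, was the brightest stathmin and had 2 probes, whose values had the same sign in 6 of 7 regions. In the PVN they were opposite, at -0.24 for spot 5934 and 0.35 for spot 19487. In the NAc the first (spot 5934) gave 0.55, 1.11, 0.72, 0.68 and 0.38 with HAB in Cy3 and 0.38, 0.11, 0.56, 0.44 and 0.30 with HAB in Cy5. The second (spot 19487) gave 0.06, 0.73, 0.99, 0.47 and 0.96 and then 0.65, 0.49, 0.80, 0.39 and 0.42. All 20 values were above 0. The region values were 0.52 (adjusted p = 0.0676) and 0.60 (adjusted p = 0.0487), and the value of spot 19487 was 1 of the 2 calls by limma within a region. In the CeA both were negative, at -0.52 and -0.46, each with 1 of 10 arrays above 0, and adjusted p-values were 0.156 and 0.212. In the SON they were 0.52 and 0.43. The differences between regions passed the F-test for both probes (adjusted p = 6.27e-06 and 0.0157). In the MeA and the Cg the dye orientations had opposite signs, with means for spot 5934 of 0.62 (HAB in Cy3) and -0.43 (HAB in Cy5) in the MeA, and of 0.64 and -0.54 in the Cg, so that the region values of 0.09 and 0.05 averaged values of opposite sign.

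Stmn2, a neuronal stathmin of growing axons, had 3 probes. Its brightest (spot 21639) ran between -0.28 in the CeA and 0.29 in the NAc (F-test adjusted p = 0.409). Spot 4901 had -0.65 in the CeA, 0.56 in the NAc and -0.49 in the Cg (F-test adjusted p = 0.000721), and spot 14770 stayed between -0.26 and 0.16. The NAc arrays of spot 4901 lay between 0.77 and 1.53 for HAB in Cy3 and between -0.29 and 0.58 for HAB in Cy5. In the Cg spots 21639 and 4901 had opposite signs, with 0.12 for the first. Stmn3 (0.28 in the BLA to -0.33 in the CeA for its brightest probe) and Stmn4, which was near the empty spots with 5 HAB and 4 LAB channels above them, did not pass any test. The 2 further probes of Stmn3 had -0.09 and 0.10 over regions.

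Of the 13 names beginning with tubulin, which include delta-tubulin and 3 proteins of the gamma-tubulin complex, 9 were above the empty spots and 1 differed between regions. Tuba1b, the brightest, is a major alpha-tubulin. Its first probe (spot 15251) had -0.28 in the PVN, -0.19 in the BLA, -0.44 in the CeA, 0.22 in the NAc, -0.24 in the MeA, -0.20 in the Cg and 0.47 in the SON (F-test adjusted p = 0.00839). The second (spot 18760) had -0.14, 0.01, -0.27, 0.27, -0.07, -0.12 and 0.58 in the same order (adjusted p = 0.0403). Both were highest in the SON and NAc and lowest in the CeA. In the CeA 1 array with HAB in Cy3 gave -2.36 for spot 15251, against -0.49 to 0.21 for the other 9, and the region median was -0.29. In the PVN all 10 arrays of spot 15251 were below 0, between -0.60 and -0.01 (adjusted p = 0.338).

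The other alpha-tubulins had values over regions between -0.08 (Tuba1c) and 0.09 (Tuba4a), with 0.07 for Tuba3a and 0.03 for Tuba8. Tuba1c (spot 12440) was -0.38 in the CeA and 0.16 in the SON (F-test adjusted p = 0.326). The second probe of Tuba1c gave -0.02 over regions, that of Tuba8 0.12, and the 2 further probes of Tuba4a -0.04 and -0.07. Among the beta-tubulins the values were 0.19 for Tubb2a, 0.10 for Tubb3, the form specific to neurons, -0.00 for Tubb4a and -0.04 for Tubb5, with adjusted p-values between 0.759 and 1.00. Tubb2a was positive in 6 of 7 regions, and its 2 further probes gave -0.04 and 0.07. Tubb5 was counted in the SON by its second probe (spot 21195), whose 10 arrays lay between 0.06 and 1.32 with a median of 0.45 and a mean of 0.52 (adjusted p = 0.549). Its brightest probe (spot 4831) had 0.05 there, with arrays between -1.43 and 0.87, so the 2 probes of Tubb5 did not give the same picture. HAB exceeded the empty spots on 10 and LAB on 5 of the 10 arrays for spot 21195, and for spot 4831 each did on 3. Of the 2 folding cofactors, Tbca was the brighter, with -0.16 over regions (adjusted p = 0.830) and -0.45 in the Cg, and Tbce had 0.10. The value of Tbca was 0.24 on arrays with HAB in Cy3 and -0.56 on those with HAB in Cy5.

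Map2, the dendritic microtubule-associated protein, was the brightest of the 9 names of that role. In the NAc its main probe (spot 8162) was below 0 on all 10 arrays, with -0.32, -0.22, -0.12, -0.17 and -0.07 for HAB in Cy3 and -1.56, -0.95, -0.49, -1.10 and -0.39 for HAB in Cy5. The direction was shared, but the mean was -0.90 with HAB in Cy5 and -0.18 with HAB in Cy3, and the region value of -0.54 had an adjusted p of 0.0947. The other regions lay between -0.31 (MeA) and 0.16 (Cg), and the difference between regions passed the F-test (adjusted p = 0.0116). A second probe of Map2 (spot 1061) was near the empty spots and had -0.08 in the NAc. Tau (Mapt), which stabilizes axonal microtubules, had 0.05 over regions for its brightest probe and -0.01 for its second. The third (spot 6815) was negative in all 7 regions, with -0.33 over regions and an adjusted p of 0.108, but it exceeded the empty spots in only 23 HAB and 28 LAB channels. Map1b was near the empty spots and had 0.02 over regions, and Map4 had -0.01 for its brightest probe, with its 5 further probes between -0.05 and 0.20. Map1a was not among the names found by the rule.

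Mapre2, an end-binding protein that tracks growing microtubule tips, was counted in 2 regions by 2 probes that disagreed with each other. Spot 11388 was below 0 on all 10 arrays of the PVN, with -0.27, -0.44, -0.61, -0.20 and -0.23 for HAB in Cy3 and -0.44, -0.48, -0.66, -0.46 and -0.35 for HAB in Cy5. Its mean of -0.42 had an adjusted p of 0.0939, and the spread of these arrays was small (SD 0.15). Spot 14195, of nearly the same mean intensity (2556, against 2632), had 0.17 in the PVN with 8 of 10 arrays above 0. In the CeA spot 14195 was below 0 on all 10 arrays (-1.58 to -0.09, mean -0.51, adjusted p = 0.233), while spot 11388 had -0.09. Over the 8 arrays of the CeA scanned on the same day the value of spot 14195 was -0.46. The correlation of the 2 probes over the 7 regions was -0.57. The other 2 probes of Mapre2 were near the empty spots and had -0.42 and 0.00 in the PVN. Mapre1 had 0.11 over regions.

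The kinesins were the largest role, with 26 names and 45 probes, and 16 names were above the empty spots. Their median over regions was -0.01, with 10 names higher and 16 lower. Kifap3, the subunit that links the kinesin 2 motor to its cargo, was the brightest and had 3 probes with nearly the same profile. In the CeA they gave -0.36, -0.37 and -0.48, and in the Cg 0.43, 0.48 and 0.39 (spots 5615, 5944 and 16196). The CeA arrays of spot 5615 lay between -0.72 and 0.46 for HAB in Cy3 and between -0.95 and -0.47 for HAB in Cy5. The MeA values were 0.25, 0.33 and 0.32, the NAc values 0.18, 0.15 and 0.23, and the SON values -0.29, -0.24 and -0.14. The differences between regions passed the F-test for each of them (adjusted p = 0.00167, 0.00110 and 0.00470). In the Cg spot 16196 was above 0 on all 10 arrays, with 0.31, 1.09, 0.26, 0.19 and 0.31 for HAB in Cy3 and 0.35, 0.42, 0.36, 0.38 and 0.21 for HAB in Cy5 (adjusted p = 0.332 within the region). Over the 6 arrays of the Cg scanned on the same day its value was 0.33. Kif3b, a motor subunit of the same complex, had 0.00 over regions for its brightest probe and did not pass the F-test (adjusted p = 0.453).

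Of the kinesin 1 heavy chains, the motors of fast axonal transport, Kif5c and Kif5a differed between regions. Kif5c had -0.55 and -0.60 in the CeA and 0.35 and 0.36 in the Cg for spots 4712 and 23438 (F-test adjusted p = 0.00168 and 0.00401). The dimmest of its probes (spot 6417), which exceeded the empty spots in only 35 HAB and 36 LAB channels, had -0.19 and -0.10 in these regions. The 2 bright probes of Kif5c had the same signs as Kifap3 in the CeA and Cg. In the Cg the arrays of spot 4712 lay between -0.18 and 0.13 for HAB in Cy3 and between 0.41 and 1.27 for HAB in Cy5. Those of spot 23438 lay between -0.42 and 1.03 and between -0.33 and 0.88. In this region 1 scanning day held only arrays with HAB in Cy3, so dye and day cannot be told apart there. Kif5a was counted in the MeA with -0.99, -0.88, -0.96, -0.69 and -0.01 for HAB in Cy3 and -1.33, -0.34, -0.21, -0.75 and -0.80 for HAB in Cy5. All 10 were below 0, with a mean of -0.70 (adjusted p = 0.219), and 1 array lay close to 0. Its other regions ran between -0.32 (BLA) and 0.21 (SON), and the F-test gave an adjusted p of 0.0115. Kif5b had -0.06 over regions (F-test adjusted p = 0.111) and its 3 further probes -0.08, -0.08 and 0.04.

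The kinesin 3 heavy chains Kif1a, Kif1b, Kif1c and Kif13a, which carry synaptic vesicle precursors and other membrane cargo, had 0.12, -0.01, -0.06 and -0.18 over regions with adjusted p-values between 0.754 and 0.998. Kif13a was negative in 6 of 7 regions. The further probes of Kif1a gave -0.06 and 0.04 and that of Kif1b 0.01. Kif21a, a kinesin that slows microtubule growth, had 0.55 in the MeA, where the arrays gave 0.41, 0.72, 1.12, 0.71 and 0.02 for HAB in Cy3 and 0.57, 0.48, 0.49, 0.52 and 0.51 for HAB in Cy5 (adjusted p = 0.324). It had -0.38 in the CeA, and the F-test gave an adjusted p of 0.000400 (spot 10890). The second probe of Kif21a had 0.31 in the MeA and 0.42 in the CeA and was near the empty spots. The pseudogene Kif22-ps was counted in the PVN by its dimmer probe (spot 12875), at -0.58 with arrays between -1.31 and -0.05, where HAB exceeded the empty spots on 1 and LAB on 5 of the 10 arrays. Its brighter probe had 0.19 there. Among the mitotic kinesins, Kif11, Kif15, Kif18a, Kif23, Kif4 and Kifc1 were nearer to the empty spots, and none of these passed a test. Kif2c was above the empty spots in 62 HAB and 62 LAB channels, and the brightest probe of Kif20a in 48 and 49.

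Among the cytoplasmic dyneins, 1 of 6 names differed between regions. Dync1i1, the intermediate chain through which dynein holds dynactin, had 2 probes with a like profile, at -0.43 and -0.38 in the CeA and 0.28 and 0.41 in the Cg (spots 1135 and 9419, F-test adjusted p = 0.0298 and 0.0159). In the CeA the dye orientations differed, with a mean of 0.01 on arrays labeled HAB in Cy3 and -0.87 on the others for spot 1135. The heavy chain Dync1h1 had 0.06 over regions (adjusted p = 0.964), and the light chains Dynll1, Dynlrb1 and Dynlrb2 had -0.02, 0.08 and 0.01.

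Of 5 dynactin names, 2 differed between regions. Dctn6, a subunit at the pointed end of the dynactin filament, had the highest region value of the 83 names, 0.93 in the SON. Its arrays there gave 1.08, 1.77, 1.63, 1.30 and 0.75 for HAB in Cy3 and 0.57, 0.35, 0.53, 0.99 and 0.30 for HAB in Cy5. All were above 0 and the region value had an adjusted p of 0.0573, with an F-test adjusted p of 3.20e-05. The 2 orientations differed further in the BLA, where the mean was 1.48 for HAB in Cy3 but -0.40 for HAB in Cy5, and the region value was 0.54. Over regions the value was 0.72 on arrays with HAB in Cy3 and -0.22 on those with HAB in Cy5. Dctn6 had no second probe.

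Dctn5, a further subunit of the pointed end, had 2 probes that went opposite ways in the NAc. In the MeA its brightest probe (spot 9439) gave 0.62, 1.79, 0.90, 0.59 and 0.62 for HAB in Cy3 and 0.37, 0.42, 0.28, 0.50 and 0.18 for HAB in Cy5, all above 0, with a mean of 0.63 (adjusted p = 0.282). In the CeA it had -0.64 (adjusted p = 0.0875), with 9 of 10 arrays below 0, and the 2 orientations had means of -0.12 (HAB in Cy3) and -1.16 (HAB in Cy5). The F-test gave an adjusted p of 1.03e-05. In the NAc spot 12571 was below 0 on all 10 arrays (-1.19 to -0.16, mean -0.60, adjusted p = 0.0651), while spot 9439 had 0.33 with 8 of 10 arrays above 0. Dctn4 had -0.12 and Dctn3 -0.07 over regions. Dctn1, the large subunit that binds microtubules, was near the empty spots on this array (3 HAB and 7 LAB channels above them), and its value of -0.02 over regions says little.

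Actb, the cytoplasmic beta-actin often used as a reference gene, had 3 probes and differed between regions by 2 of them. The brightest (spot 6474) had -0.36 in the PVN, -0.03 in the BLA, -0.50 in the CeA, -0.05 in the NAc, -0.72 in the MeA, -0.14 in the Cg and 0.49 in the SON, with the lowest F-test adjusted p of the members, 5.48e-06. Spot 1414, of like intensity, had 0.17, -0.21, -0.71, -0.17, -0.07, -0.41 and 0.13 in the same order (adjusted p = 3.05e-05). The 2 probes were both negative in the CeA and both positive in the SON, but in the MeA they differed by 0.65. In the CeA spot 1414 was below 0 on all 10 arrays, with -1.07, -0.88, -0.92, -0.15 and -0.59 for HAB in Cy3 and -0.64, -0.76, -0.74, -0.85 and -0.47 for HAB in Cy5 (adjusted p = 0.0839). Over the 8 arrays scanned on the same day the value was -0.62. In the MeA spot 6474 was below 0 on 9 of 10 arrays (adjusted p = 0.158). Spot 6900 had -0.20 in the CeA, 0.14 in the MeA and 0.44 in the SON (F-test adjusted p = 0.355). Over all regions the 3 probes gave -0.19, -0.18 and -0.03, none past the test.

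The other actins had values over regions between -0.19 (Actg1) and 0.17 (Actl7b), and among the brightest probes of the 7 actin names those of Actb and Acta1 were above the empty spots on at least 35 arrays. The second probe of Actl6 (spot 3214) was also above them, with 36 HAB and 35 LAB channels and a value of -0.11. Actn1 was the brightest actinin and had 0.04 over regions. In the Arp2/3 complex, which nucleates branched actin filaments, Arpc1a was the brightest and had -0.00. Arpc1b was negative in 6 of 7 regions, with 0.13 in the CeA. Without the CeA its value was -0.42 (adjusted p = 0.0237), a call that was absent with all 7 regions.

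The difference between regions was the test that most members passed. The F-test over the 70 arrays had an adjusted p under 0.05 for 20 of 142 member probes (14.1%) and 11 of 83 names (13.3%), against 6.09% of all probes. Among names above the empty spots it was 20.4%, against 10.5% of all such probes. The members that passed were bright: 10 of the 11 belonged to the 21 brightest names, and 47.6% of these 21 passed, against 35.8% of the 2493 probes that were at least as bright. Leaving out replicate 3 or replicate 2 of each group brought the 20 probes to 10 and 11. The share of all probes that passed without these replicates is not given here.

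The 20 probes had values below 0 in the CeA in 18 cases, against 65.3% of the 1391 probes of the whole array that passed the same test. Their median in the CeA was -0.43, against -0.21. The 2 exceptions were Map2 and Spast. In the PVN 14 of the 20 were below 0, against 46.7% of the 1391 probes, in the NAc 5, against 42.1%, and in the Cg 6, against 43.4%. Probes of a name are not independent, since the 20 probes belong to 13 names. The 21 brightest names, passed or not, had medians of -0.235 in the CeA, 0.142 in the NAc, 0.128 in the Cg, -0.132 in the PVN and 0.095 in the SON. All probes at least as bright had -0.111, 0.038, 0.021, -0.010 and 0.011 in these regions. Values below 0 in the CeA were thus not particular to the members, and the difference from other bright probes was not tested. The medians of the neuronal markers, -0.16 in the CeA and 0.19 in the NAc, had the same signs as the members in these regions but not in the SON (-0.24). Of these 7 markers 3 were above 0 in the CeA and 4 in the NAc. The brightest was Nefm (mean intensity 27106, against 3856 for Stmn2), so it weighed most in a sum. Its values went the other way, with 0.36 in the CeA and -0.08 in the NAc. The summed intensity of the neuronal markers was 25225 in HAB and 33827 in LAB in the CeA, and 57011 in HAB and 32577 in LAB in the NAc. These sums are of signals before normalization, and those of astrocytes, microglia and endothelium were unequal in the same directions, while those of oligodendrocytes were lower in HAB in both regions. The sums were 9569 in HAB and 15788 in LAB in the CeA and 11849 in HAB and 6054 in LAB in the NAc for 6 astrocyte markers, whose median ratios after normalization were 0.06 and 0.10. Their part in the result was not tested.

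**Figure D3:**
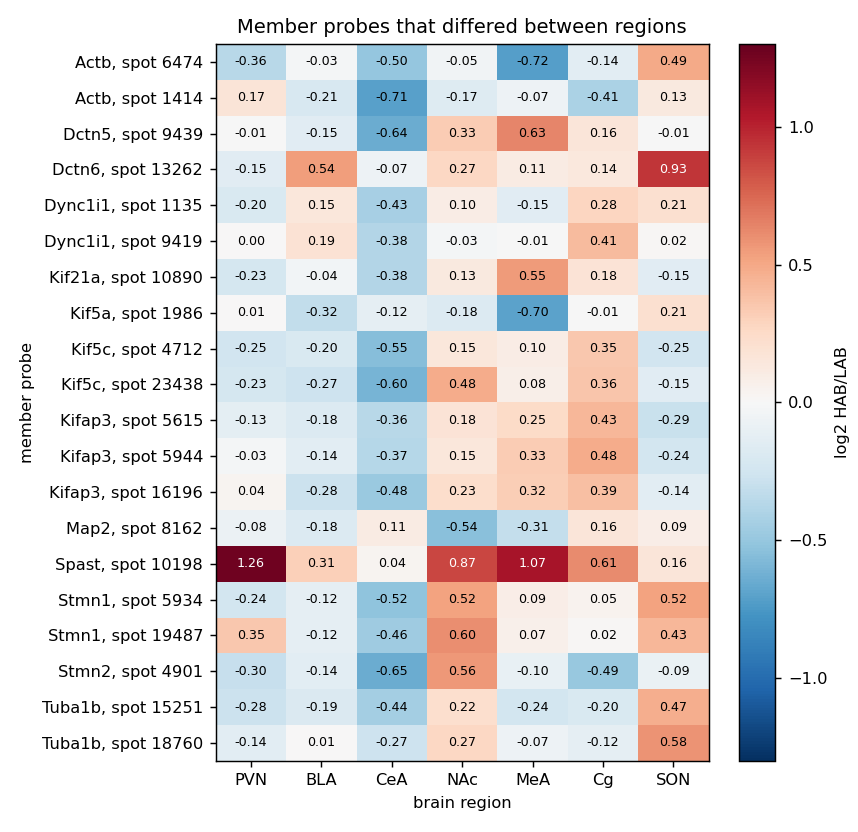
Log2 HAB/LAB (color and printed value) in the 7 regions for the 20 member probes whose difference between regions had an adjusted p under 0.05. Values in the CeA are below 0 for 18 of the 20 probes, and Spast has the highest values, 1.26 in the PVN and 1.07 in the MeA. Each value is the mean of both dye orientations, which differed in the CeA for some of the probes.

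Probes of the same name gave a check on these profiles. For 15 pairs of probes from 11 names in which both exceeded the empty spots on at least 60 arrays in both lines, the correlation of the region values had a median of 0.81 (-0.57 to 0.99), and the values differed by 0.13 in the median. For the other 77 pairs, from 33 names, the median correlation was 0.02 and the median difference 0.28. These correlations run over 7 regions of the same arrays and are a description only. Among the 15 bright pairs the closest were those of Tuba1b (0.99), Kifap3 (0.93 to 0.99), Kif5c (0.94) and the first 2 probes of Map4 (0.90), and the least alike of these 15 pairs were those of Mapre2 (-0.57) and Kif5b (-0.38). Among the dimmer pairs the lowest correlation was -0.96, for 2 probes of Kns2.

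**Figure D4:**
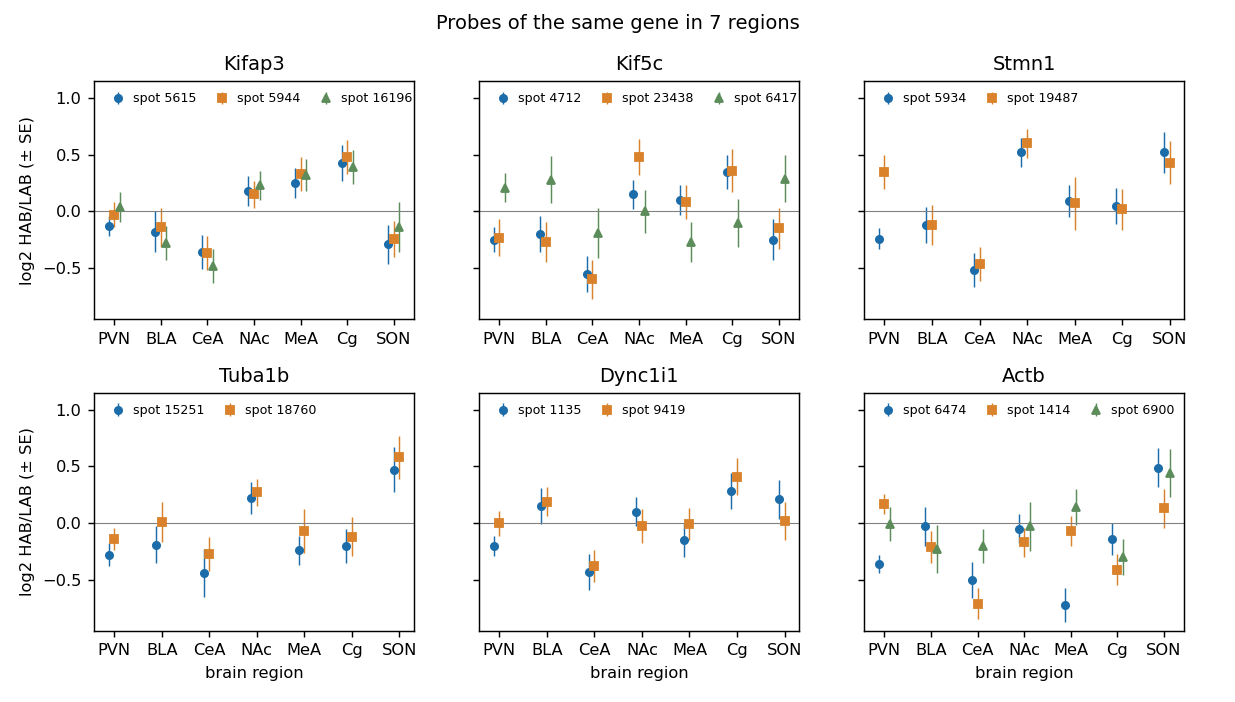
Log2 HAB/LAB in the 7 regions (vertical axis, error bars are the standard error of limma within a region) for all probes of 6 members, 1 symbol per probe. The 3 probes of Kifap3 share a sign in every region but the PVN (-0.13, -0.03 and 0.04). They have -0.36 to -0.48 in the CeA and 0.39 to 0.48 in the Cg. The first 2 probes of Actb separate in the MeA at -0.72 and -0.07.

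Other genes of the cytoskeleton outside the rule gave a comparison. A list of name beginnings for actin-binding proteins, spectrins, myosins, neurofilaments and regulators of microtubules matched 176 probes with 107 names. None passed the test over regions with limma (9 had an unadjusted p under 0.05), and 11 (6.25%) passed the F-test, against 6.09% of all probes and 14.1% of the members. The difference between the lists was not tested. In single regions 7 pairs of probe and region were counted as higher and 8 as lower, 1.22% of 1232 pairs. The share was 0.957% for all probes and 1.60% for all probes above the empty spots. Profilin 2, an actin monomer binding protein, was counted as higher in HAB in the NAc (0.60) and Cg (0.62), and had -0.45 in the CeA. The probe named spectrin beta 3 went the other way, with 0.65 in the CeA and -1.27 in the NAc. It was very bright (mean intensity 44084). Like values came from the bright probes of Mobp (28074) and Cnp (35105), at 0.72 and 0.70 in the CeA and -1.22 and -1.36 in the NAc. These are 2 of 9 oligodendrocyte markers, of which 2 were above 0 in the CeA and 6 in the NAc. Whether brightness had a part in these values was not tested.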

How the data were processed

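Each array was a 2-color hybridization of HAB against LAB RNA. The authors deposited spot and local background intensity for both dyes, read with QuantArray by the fixed circle method after scanning, with neither background subtraction nor crosstalk correction applied. For 3 channels the dye was read from the image name. A series table of log2 ratios, also made by the authors, ran as HAB over LAB when set against the scanner values and served as an alternative, with its scale and filters only partly known. No column of per-sample values was left out.

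Intensities were corrected with normexp (offset 50), normalized within arrays by loess (span 0.4) and centered by print-tip medians in limma 3.58.1 (R 4.3.3). Of the background values 79.8% were 0. A probe was above the empty spots where it exceeded the median of 1170 empty spots by 2 median absolute deviations. The 1368 control and empty spots of the 24192 were left out of the tests. A region value was the mean of both dye orientations. The line difference over regions was tested by limma on the 7 region values, the difference within a region on 10 arrays with a dye term, and the difference between regions by an F-test over 70 arrays, all with Benjamini-Hochberg adjustment over all probes. A simulation with known changes was used to test the scripts.

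Genes were named where they passed the test over regions, were counted in a region (up to 2 per direction), were the brightest of their role, were among the 5 lowest p-values between regions, or belonged to a list of tubulins, tau, stathmins, motor heavy chains and dynactin 1. Old array names were updated to current symbols, except Actl6, Kns2 and Map1lc3. In the list of other cytoskeleton genes a name that only happened to begin with the letters of tau was left out. Members and lists were chosen with earlier results of these data known. Alternatives covered background correction, normalization, the filter on dim probes, dye orientation, the value table, the mean over probes of a name, scanning day, the replicate number as a block, and leaving out replicates or regions.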

Additional observations from a re-analysis of the deposited data

Results flagged for a closer look

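Of the groups of 5 arrays of 1 dye orientation tested for a distant array, 2 of 46 were flagged, and chance flags about 1 in 20 groups. For Dctn5 (spot 9439) in the MeA with HAB in Cy3, 1 array gave 1.79 while the other 4 lay between 0.59 and 0.90. For Kifap3 (spot 16196) in the Cg with HAB in Cy3, 1 array gave 1.09 while the others lay between 0.19 and 0.31.

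The difference between HAB and LAB varied between the 7 regions for 11 names by their brightest probe, by the F-test of limma. The adjusted p-values were 5.48e-06 for Actb, 6.27e-06 for Stmn1, 1.03e-05 for Dctn5, 3.20e-05 for Dctn6 and 0.000400 for Kif21a. They were 0.00167 for Kifap3, 0.00168 for Kif5c, 0.00839 for Tuba1b, 0.0115 for Kif5a, 0.0116 for Map2 and 0.0298 for Dync1i1. Spot 10198 of Spast had 0.0138. These p-values rest on technical replicates of 1 pool per line and region.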

How the results depend on the processing

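The median of the 83 names over regions, -0.005, stayed within the spread between arrays under every alternative run. Over regions 0 names passed the test of limma, but 2 did on arrays with HAB in Cy3 only (Actn2 at -0.55 and Dctn6 at 0.72), 1 on arrays with HAB in Cy5 only (Tbca at -0.56), and between 0 and 1 when a replicate or a region was left out. Of the member probes 1 passed, against 0 with no background correction, with plain subtraction and with the array median only, 5 with HAB in Cy3 only, 2 with HAB in Cy5 only, and between 0 and 2 when a replicate or region was left out. With 1 orientation the calls among all 22824 probes also went up, to 366 (HAB in Cy3) and 328 (HAB in Cy5), against 69. The value of Spast (spot 10198) stayed between 0.51 and 0.82 as a single probe. The mean of both probes of Spast was 0.37 (adjusted p = 0.0930), so that no name passed with probes averaged. For spot 10198 alone, the adjusted p of limma missed the threshold with no background correction (0.0685), plain subtraction (0.0756) and the array median only (0.0548). It also missed it with HAB in Cy5 only (0.0660), and without the PVN (0.0539) or the MeA (0.0884). The cause was not tested.

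Within regions 2 pairs of probe and region passed limma, against 16 by the rule of 1.3-fold in all arrays, 0 with no background correction, 18 with the array median only, 21 in the authors' value table, and between 0 and 0 without a replicate. The 16 counted pairs became 21 to 26 without a replicate, where fewer arrays have to share a direction. The 20 probes that differed between regions became 10 to 16 without a replicate. Shares of all probes under these settings are not given here, so whether the changes are particular to the members was not tested. Of 1955 single values under alternatives, 1922 kept their side of the threshold, 20 lost it, 13 gained it and none past it turned round. Among those past the threshold in neither setting, 308 had the other sign or 0 under the alternative. Most values were short of the threshold to begin with, so keeping a side says little about their stability.

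With the replicate number as a block, 0 pairs passed within regions. Arrays of the same number in both orientations showed no pairing: the correlation of their deviations lay between -0.051 and 0.042 over 35 pairs, with 0 over 0.1, and 8 arrays correlated best with their own number. The blocked F-test called 15 probes, and its share of all probes is not given here. The brightest probe was near the empty spots for 29 of the 83 names, of which Actl6 and Spast had another probe above them. For Spast (spot 10198) this held only in HAB, the line with the higher signal, with 47 HAB and 22 LAB channels. Leaving out the bright array of the CeA (HAB in Cy3, replicate 4) was an alternative chosen after seeing the data, and it left 0 names and 1 probe past the test over regions and 20 probes that differed between regions.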
